A study of Mus musculus with 13 samples.

Results

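The proteins described here build and form the small nucleolar ribonucleoproteins (snoRNPs). They were picked by gene symbol, with earlier results of these data known, and comprise 10 of the 32544 gene symbols in the count table. Nop58, Nop56 and Fbl encode core proteins of the box C/D class, Dkc1, Gar1, Nhp2 and Nop10 encode the core of the H/ACA class, and Naf1, Shq1 and Nolc1 encode factors that assemble or chaperone the particles. All 10 symbols had a row in the table, and 9 had enough counts to be tested. Their transcripts were measured by Quant-seq, which reads the 3′ ends of polyadenylated RNA, in lung tissue of wild-type C57BL/6J male mice bought at 7 weeks of age. The 7 normoxia libraries came from lungs kept at 21% oxygen and the 6 hyperoxia libraries from lungs kept at 80% oxygen, in both cases for 5 days. The lung tissue was perfused, frozen and homogenized, so that each value is a mean over the cell types in that tissue. A fall in the number of cells of a type and a fall in RNA per cell therefore cannot be told apart.

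A snoRNP pairs a small guide RNA with a fixed set of proteins and modifies ribosomal RNA in the nucleolus. Box C/D particles add methyl groups to ribose, with fibrillarin as the enzyme, whereas H/ACA particles turn uridine into pseudouridine, with dyskerin (encoded by Dkc1) as the enzyme. The telomerase RNA also carries an H/ACA domain and is held by the same H/ACA proteins. Most vertebrate snoRNAs are cut out of the introns of other genes, among them genes for snoRNP proteins.

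Library totals ranged from 1607111 to 3387736 counts in normoxia and from 2029006 to 4540288 in hyperoxia. Across all 12496 genes tested with edgeR, 1473 were higher in hyperoxia (11.8%) and 1346 were lower (10.8%) at an adjusted p below 0.05. Higher genes thus made up 52.3% of the calls, but 38.8% when the deposited log values were tested with limma, a scale on which the median change of all genes was lower by 0.13 (log2). The first hyperoxia library stood apart from the others, with a mean correlation of 0.779 with the other libraries, against 0.886 to 0.919 for the remaining 12. Defining markers of lung cells were present. The 6 alveolar type 2 markers summed to between 12382 and 23028 CPM (the counts-per-million unit, scaled by TMM) in normoxia and between 3181 and 6846 in hyperoxia, and 5 of 6 fell. All 6 B cell markers fell, with sums of 150.1 to 206.8 CPM in normoxia and 39.3 to 71.8 in hyperoxia. All 3 tested T and NK cell markers fell as well (30.3 to 56.6 against 10.8 to 29.5 CPM), as did 3 of 6 heart muscle markers (80.6 to 240.2 against 4.83 to 289.3 CPM) and 3 of 8 macrophage and monocyte markers (243.1 to 389.0 against 80.4 to 576.2 CPM). Of the alveolar type 1 markers 1 of 6 fell, of the endothelial markers 1 rose and 1 fell of 6, of the fibroblast markers 1 of 4 tested rose, and neither the 5 tested neutrophil markers nor the 1 tested liver marker passed. No marker was at 0 in every library. The part of these shifts in the results on the snoRNP genes was not tested.

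Of the 9 tested members, 5 rose in hyperoxia (Nop58, Nop56, Dkc1, Nhp2 and Nolc1) and 0 fell, where 11.8% of all tested genes rose. The median log2 fold change was 0.59 over the 9 members and -0.03 over all tested genes. In 4 members every hyperoxic library lay above every normoxic one, a separation in this direction that 5.6% of tested genes showed. At the stricter limit of a log2 fold change above 1.5, 2 members passed (Nop58 and Nhp2), against 1.55% of tested genes. Both lay close to this limit, at 1.57 and 1.55, and neither reached it on the deposited log values (1.47 and 1.38). By class, the transcripts of 2 of 2 tested box C/D members rose, of 2 of 4 H/ACA members and of 1 of 3 assembly factors. Snu13, a further core box C/D protein outside the member list, did not pass (edgeR adjusted p = 0.362). The median log2 fold changes of the members in these classes were 1.32, 0.58 and 0.34. The call on Dkc1 was the least secure of the 5, and without it 4 members remained.

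**Figure D1:**
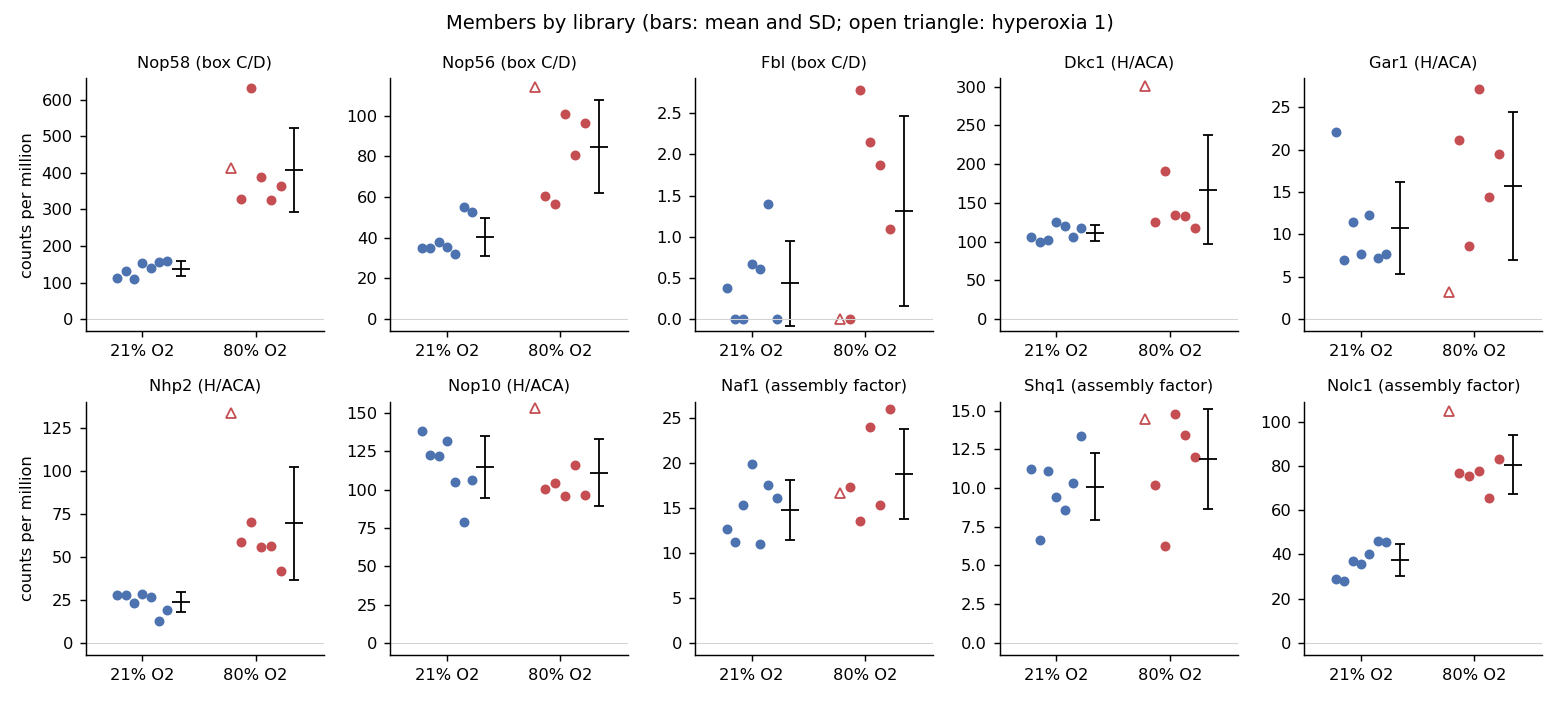
Each panel plots 1 gene in TMM-scaled CPM on a linear axis, with 1 point per library, 7 at 21% oxygen and 6 at 80% oxygen, and the mean with its SD beside the points. Nop58, Nop56, Nhp2 and Nolc1 separate the conditions in every library, the first hyperoxia library (open triangle) is the highest for Nop56, Dkc1, Nhp2, Nop10 and Nolc1 and the lowest for Gar1, and Fbl lies between 0 and 2.78.

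Nop58 encodes a core scaffold protein of every box C/D particle. Its level ran from 108.6 to 159.4 CPM in the normoxic lungs, with a median of 140.3, and from 326.7 to 631.6 CPM in the hyperoxic lungs, with a median of 375.0. The lowest hyperoxic library held more than 2 times the highest normoxic one, and the groups did not overlap. The mean was 137.3 ± 20.5 (SD, n = 7) against 408.2 ± 114.4 (SD, n = 6), a log2 fold change of 1.57 ± 0.17 (SE), or 2.97-fold (edgeR quasi-likelihood test, adjusted p = 1.22e-05). The third hyperoxia library was the highest at 631.6 CPM, and the other 5 lay at or below 412.8.

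Nop56 encodes the partner of Nop58, which sits on the opposite side of the box C/D guide RNA. Normoxic lungs ranged from 31.9 to 55.2 CPM (median 35.7) and hyperoxic lungs from 56.6 to 114.2 CPM (median 88.6). The groups did not overlap, but the gap between them was narrow, since the sixth normoxia library (55.2) and the third hyperoxia library (56.6) were nearly level. The mean rose from 40.5 ± 9.38 (SD, n = 7) to 84.9 ± 23.1 (SD, n = 6), a log2 fold change of 1.06 ± 0.20 (SE) and an adjusted p of 0.00107 by edgeR.

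Fbl encodes fibrillarin, the methyltransferase of the box C/D particle. It was almost absent from the count table, with 0 to 5 counts per normoxic library (9 in all) and 0 to 8 per hyperoxic library (27 in all). Only 5 of the 13 libraries held more than 3 counts. It was therefore left out of the test, and a change in Fbl was not detectable with so few counts. RefSeq lists a pseudogene, Fbl-ps2, and whether reads of Fbl were assigned elsewhere in the pseudoalignment was not tested, so the counts do not show that the gene was silent.

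The genes for both box C/D scaffolds also carry snoRNAs inside them. In the GENCODE annotation of GRCm38, Nop58 (chr1:59684971-59719044, + strand) contains 4 snoRNA genes on its own strand, Nop56 (chr2:130274430-130279313, + strand) contains 5 and Dkc1 (chrX:75095854-75109777, + strand) contains 1. The other 7 members contain 0. Of the 21924 protein-coding gene names annotated, 258 (1.18%) hold a snoRNA gene on the same strand, against 3 of the 10 members. All 3 passed the test, the call on Dkc1 being insecure as given below, where 24.5% of the tested protein-coding hosts and 11.8% of all tested genes rose. The 4 named box C/D RNAs of Nop58 and Nop56 and a further snoRNA of Nop56, Gm24451, are shown because snoRNAs are the RNA part of the particles whose proteins these hosts encode. Capitals mark the core of box C (GATG) near the 5′ end and box D (CTGA) near the 3′ end. In the last sequence they mark the ACA, which lies 3 bases before the 3′ end.
Snord70, within Nop58, chr1:59691934-59692020, + strand: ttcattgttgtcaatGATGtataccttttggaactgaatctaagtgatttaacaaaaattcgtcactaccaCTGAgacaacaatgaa
Snord11, within Nop58, chr1:59704790-59704873, + strand: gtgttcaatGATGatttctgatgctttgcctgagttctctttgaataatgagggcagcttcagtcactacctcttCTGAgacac
Snord110, within Nop56, chr2:130275506-130275573, + strand: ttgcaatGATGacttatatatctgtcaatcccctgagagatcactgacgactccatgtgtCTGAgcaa
Snord57, within Nop56, chr2:130278016-130278087, + strand: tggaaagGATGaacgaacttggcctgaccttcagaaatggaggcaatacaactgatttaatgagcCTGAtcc
Gm24451, within Nop56, chr2:130276237-130276369, + strand: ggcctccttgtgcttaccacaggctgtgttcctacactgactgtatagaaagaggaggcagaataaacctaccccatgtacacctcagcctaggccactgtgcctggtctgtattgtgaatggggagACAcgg
These RNAs are 68 to 133 bases long. Mature snoRNAs have no poly(A) tail, and their levels were not analysed here, so the values above are those of the host messenger RNAs.

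Dkc1 encodes dyskerin, the pseudouridine synthase at the centre of the H/ACA particle, and mutations of its human counterpart cause dyskeratosis congenita. Normoxic lungs ranged from 98.9 to 125.5 CPM (median 105.7) and hyperoxic lungs from 117.4 to 300.2 CPM (median 133.5). The groups overlapped, and 4 of 6 hyperoxic libraries lay above the highest normoxic one. The mean was 110.9 ± 10.2 (SD, n = 7) against 166.8 ± 70.4 (SD, n = 6), a log2 fold change of 0.59 ± 0.20 (SE) with an edgeR adjusted p of 0.0458. The first hyperoxia library, at 300.2 CPM, carried much of this difference. Without it the log2 fold change was 0.36 and the adjusted p was 0.0604. The call was also lost on leaving out the third hyperoxia library or any 1 of the 7 normoxia libraries, with adjusted p up to 0.0839, although all estimates stayed positive.

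Nhp2 encodes a small RNA-binding protein of the H/ACA core. It ranged from 12.8 to 28.3 CPM in normoxia (median 27.0) and from 41.8 to 134.0 CPM in hyperoxia (median 57.4). Every hyperoxic library exceeded every normoxic one, and the first hyperoxia library was far above the rest. The mean rose from 23.7 ± 5.77 (SD, n = 7) to 69.5 ± 32.9 (SD, n = 6), with a log2 fold change of 1.55 ± 0.26 (SE), or 2.93-fold, and an adjusted p of 5.00e-04 by edgeR. Without the first hyperoxia library the log2 fold change was 1.28 (adjusted p = 1.17e-04 by edgeR).

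Nop10 encodes the smallest core protein of the H/ACA particle, which binds dyskerin. Its level was 78.6 to 138.5 CPM in normoxia (median 121.7) and 96.1 to 153.3 CPM in hyperoxia (median 102.4). The ranges lay largely on top of each other. The mean was 114.9 ± 20.2 (SD, n = 7) against 111.1 ± 21.9 (SD, n = 6), and the log2 fold change of -0.05 ± 0.16 (SE) gave an adjusted p of 0.854 by edgeR. Its sign changed among the alternative analyses.

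Gar1 encodes the H/ACA protein that joins late, in exchange for Naf1. It was sparse, at 6.99 to 22.0 CPM in normoxia (median 7.74) and 3.22 to 27.2 CPM in hyperoxia (median 16.9). The first hyperoxia library was the lowest of all 13, with 6 counts, and the first normoxia library was the second highest. The log2 fold change of 0.57 ± 0.39 (SE) did not pass (edgeR adjusted p = 0.327), and it ran from 0.36 to 0.86 with 1 library left out. The sample descriptions carry single library letters from B to S, whose meaning is not given in the sources used here. For the alternative analyses the letters were divided into the sets B to M and O to S, a division that the descriptions do not state. Among the 8 libraries lettered B to M the Gar1 log2 fold change was -0.08 (adjusted p = 0.943), whereas among the 5 lettered O to S it was 1.43 (adjusted p = 0.0191). The difference between these values was not tested.

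**Figure D2:**
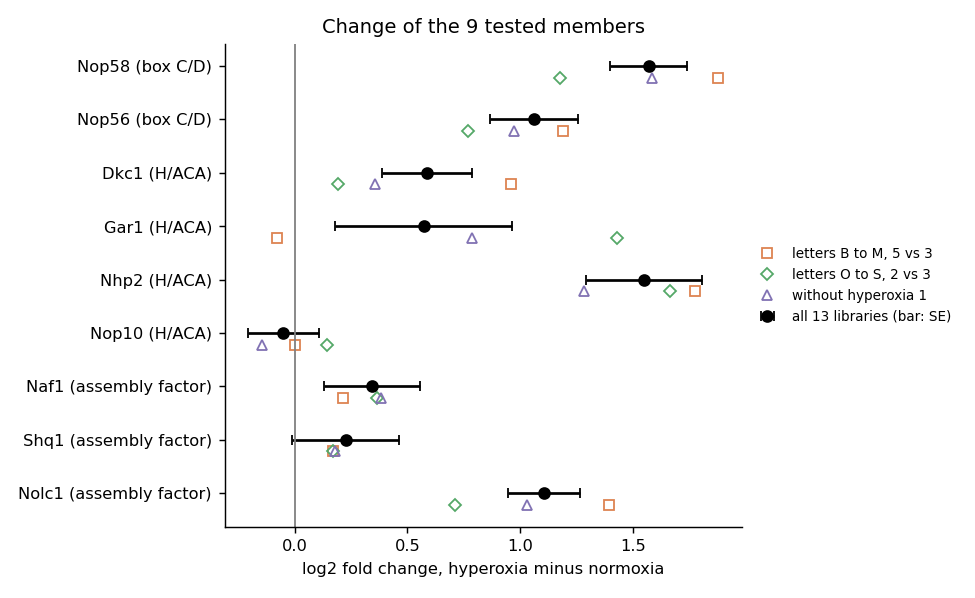
The horizontal axis gives the edgeR log2 fold change (hyperoxia minus normoxia) of each tested member, with filled circles and SE bars for all 13 libraries and open symbols for the libraries lettered B to M, those lettered O to S, and all but the first hyperoxia library. Nop58, Nop56, Nhp2 and Nolc1 stay above 0.70 throughout, Dkc1 falls between 0.19 and 0.96, and Gar1 runs from -0.08 to 1.43.

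Among the assembly factors, Nolc1 rose. It encodes a heavily phosphorylated shuttling protein that binds both snoRNP classes in the nucleolus and Cajal bodies. Its level was 28.0 to 46.3 CPM in normoxia (median 37.0) and 65.6 to 105.1 CPM in hyperoxia (median 77.3). The groups did not overlap, and the hyperoxic libraries other than the highest lay close together. The mean rose from 37.4 ± 7.31 (SD, n = 7) to 80.7 ± 13.3 (SD, n = 6), a log2 fold change of 1.11 ± 0.16 (SE) with an edgeR adjusted p of 1.48e-04.

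Naf1 encodes the factor that holds the place of Gar1 in the immature H/ACA particle. It ranged from 11.0 to 19.8 CPM in normoxia (median 15.4) and from 13.5 to 26.0 CPM in hyperoxia (median 17.0). The 2 highest libraries were hyperoxic, but the groups overlapped, and the log2 fold change of 0.34 ± 0.21 (SE) did not pass (edgeR adjusted p = 0.276). Shq1 encodes the chaperone that binds dyskerin before it meets its RNA. Its level was 6.64 to 13.4 CPM in normoxia (median 10.3) and 6.25 to 14.8 CPM in hyperoxia (median 12.7). Both the lowest and the highest library were hyperoxic, and the log2 fold change of 0.23 ± 0.24 (SE) gave an edgeR adjusted p of 0.537 and ran from 0.17 to 0.38 with 1 library left out.

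Whether the members changed to an unequal extent was examined from the log2 ratio of their counts within each library, which does not depend on library scaling. All 45 pairs were compared by a two-sided exact permutation test over all arrangements of 6 among 13 libraries. Of these, 17 differed between the conditions at a Benjamini-Hochberg adjusted p below 0.05, and the smallest p the design allows is 0.000583. The 9 pairs with Fbl, whose counts were too few to give a stable ratio, held 0 of the 17.

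Within the H/ACA core, 3 of 6 pairs shifted. The Nhp2 to Nop10 ratio was -2.29 ± 0.22 (SD, n = 7) on the log2 scale in normoxia and -0.76 ± 0.36 (SD, n = 6) in hyperoxia, a difference of 1.53 with no overlap (exact permutation test, adjusted p = 0.00375). Dkc1 lost ground to Nhp2, with a difference in log2 ratio of -0.98 (adjusted p = 0.00375, exact permutation test) and again no overlap. Dkc1 gained on Nop10 by 0.55 (adjusted p = 0.0332, exact permutation test), a call that was lost without any 1 of normoxia 1, 2, 3, 4 or 7 or hyperoxia 1, 3 or 4 (adjusted p from 0.0519 to 0.0649), which leaves 2 of 6. Messenger RNAs for proteins that meet in 1 complex thus moved by different amounts.

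The evidence that the box C/D scaffolds differed from each other depended on the analysis. The log2 ratio of Nop58 to Nop56 was 1.77 ± 0.27 (SD, n = 7) in normoxia and 2.27 ± 0.63 (SD, n = 6) in hyperoxia, a difference of 0.50 with an adjusted p of 0.109 by the exact permutation test. With permutations within each letter set the difference was 0.60 (exact permutation test, adjusted p = 0.0189), and without the third hyperoxia library it was 0.26 (adjusted p = 0.270). Across the classes, 3 of the 8 pairs of Nop58 or Nop56 with an H/ACA protein shifted. Nop58 rose more than Dkc1 by 1.04 (adjusted p = 0.00583, exact permutation test) and more than Nop10 by 1.59 (adjusted p = 0.00375), and Nop56 rose more than Nop10 by 1.09 (adjusted p = 0.0182). The ratio of Nop56 to Nhp2 differed by -0.44 (adjusted p = 0.474, from -0.61 to -0.22 with 1 library left out), but with permutations within each letter set it differed by -0.70 in favour of Nhp2 (exact permutation test, adjusted p = 0.00618), which makes 4 of 8. Without the third hyperoxia library Nop56 against Dkc1 also passed (0.70, exact permutation test, adjusted p = 0.0455). Nop58 and Nhp2, the members with the largest changes in either class, differed by 0.06 (adjusted p = 0.935, exact permutation test).

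Nolc1 rose more than the other assembly factors. Its log2 ratio to Shq1 increased by 0.91 and its ratio to Naf1 by 0.79 (adjusted p = 0.00375 and 0.00954, exact permutation test), whereas the ratio of Naf1 to Shq1 differed by 0.13 (adjusted p = 0.686). Pairs of Nop58 or Nop56 with an assembly factor shifted in 5 of 6 cases, and pairs of an H/ACA protein with an assembly factor in 4 of 12. Of these, Nop58 against Nolc1 (0.43, adjusted p = 0.0355, exact permutation test) lost its call without any 1 of normoxia 1, 3, 5, 6 or 7 or hyperoxia 3, 4 or 5, and was 0.28 without hyperoxia 3. Nhp2 against Naf1 (1.16, adjusted p = 0.0355) lost it without any 1 of normoxia 1, 3, 4, 6 or 7 or hyperoxia 1, 2, 3 or 5, and Dkc1 against Nolc1 (-0.61, adjusted p = 0.0300) without any 1 of normoxia 1, 2 or 4 or hyperoxia 4 or 6. Of the 17 calls, 13 held with each library left out in turn.

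**Figure D3:**
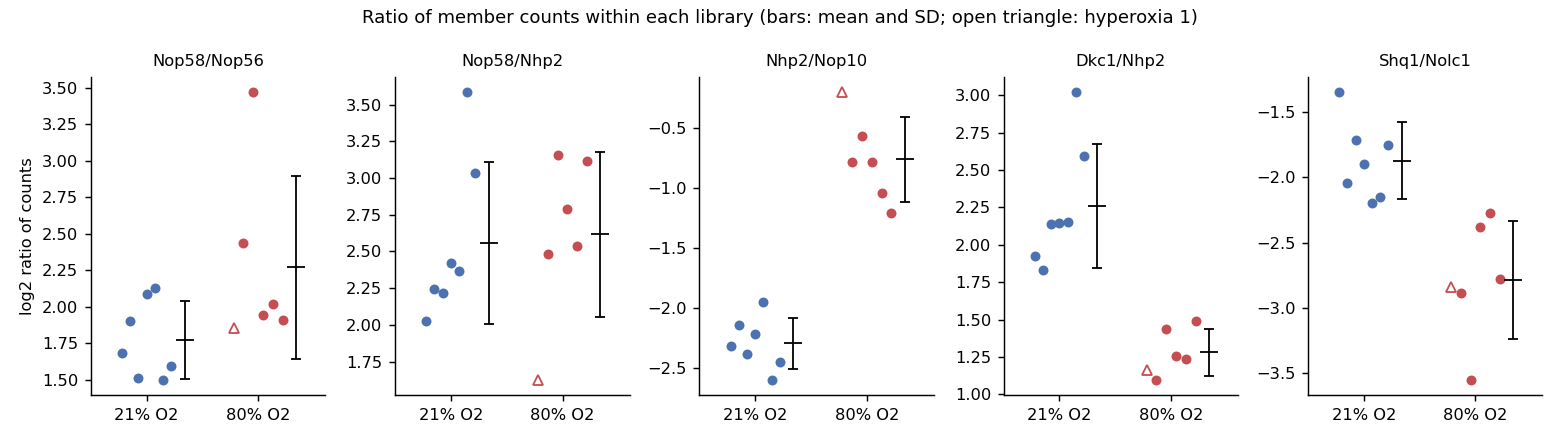
Each panel shows the log2 ratio of the counts of a pair of members within each library (0.5 added to each count), with 7 normoxia and 6 hyperoxia libraries, the mean and the SD. The Nhp2 to Nop10, Dkc1 to Nhp2 and Shq1 to Nolc1 ratios separate the conditions in every library, whereas the ratios of Nop58 to Nop56 and to Nhp2 overlap.

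Within a condition, some members rose and fell together over the libraries and others in opposite ways. After each gene was centred on its condition mean, the 36 pairs of tested members had a median Pearson r of -0.01 over 13 libraries, with values from -0.80 (Dkc1 and Gar1) to 0.87 (Nhp2 and Nop10), and 18 of 36 were above 0. Without the first hyperoxia library the median was -0.02. The value for Dkc1 and Gar1 was then -0.49 and that for Nhp2 and Nop10 was 0.79, and the lowest was -0.82 (Nop56 and Nhp2, -0.21 over all 13). Both genes of a pair are read in the same libraries, which differ in depth, in marker levels and in letter set, so the values are given as a description. Levels were not centred on the letter set. In normoxia, Nop56 was 52.6 and 55.2 CPM in the libraries lettered O to S and at most 37.9 in those lettered B to M. Nhp2 was 19.3 and 12.8 CPM in the same O to S libraries and at least 23.2 in those lettered B to M. The part of these differences in the r values was not tested. The genes outside the list with centred levels most like the mean of the members were Cyb5d2 (r = 0.84), Fabp5 (0.81), Ttc13 (0.80), Gm20715 (0.78) and Pop1 (0.77), each over 13 libraries. They were picked as the highest values among all tested genes. Without the first hyperoxia library the values were 0.79, 0.74, 0.73, 0.68 and 0.72. Fabp5 fell in hyperoxia (log2 fold change -0.97, edgeR adjusted p = 1.56e-04), and the others did not pass.

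Other genes of the pathway were taken from a list of 23 symbols that covers further particle proteins, assembly chaperones, Cajal body and cap-processing factors and export factors. Of these, 22 had a row and 19 were tested. In hyperoxia 5 rose and 0 fell, against 11.8% and 10.8% of all tested genes, and the median log2 fold change was 0.28. The first hyperoxia library had the highest summed level of the list, 12406 CPM, most of it from the Hsp90 genes.

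The 3 with the largest changes among those that passed were Hsp90aa1, Znhit6 and Nufip1. Hsp90aa1, a general chaperone that also acts in snoRNP assembly, ranged from 1228 to 2046 CPM in normoxia (median 1377) and from 2450 to 5285 CPM in hyperoxia (median 2731), with no overlap (log2 fold change 1.18 ± 0.21, SE, edgeR adjusted p = 7.52e-04). Znhit6, an assembly factor of box C/D particles, ranged from 23.1 to 32.4 CPM in normoxia and from 33.2 to 141.5 CPM in hyperoxia, again with no overlap (log2 fold change 1.08 ± 0.29, SE, edgeR adjusted p = 0.0133). Without the first hyperoxia library its log2 fold change was 0.64 (edgeR adjusted p = 0.00437), and its call was lost among the libraries lettered O to S (0.104). Nufip1, which bridges box C/D proteins to the assembly machinery, rose by 0.68 ± 0.20 (SE) on the log2 scale (edgeR adjusted p = 0.0200), a call lost among the libraries lettered B to M (0.0513) and among those lettered O to S (0.400). Other chaperones of assembly on the list had values of either sign that did not pass, with log2 fold changes of 0.74 for Hsp90ab1 (adjusted p = 0.0509 by edgeR), 0.37 for Ruvbl1, -0.25 for Ruvbl2, 0.07 for Rpap3 and -0.60 for Pih1d1. Of the remaining list genes, Rrp9 (0.82) and Znhit3 (0.66) also did not pass (edgeR adjusted p = 0.0587 and 0.0695).

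Downstream of assembly, Tgs1, which trimethylates the caps of small RNAs, and Xpo1, the nuclear exporter, had log2 fold changes of 0.48 ± 0.16 and 0.50 ± 0.17 (SE), with edgeR adjusted p of 0.0437 and 0.0447. Both calls were marginal, and were lost under 17 and 18 of 24 alternatives. Among the libraries lettered O to S the Tgs1 log2 fold change was 0.066 (edgeR adjusted p = 0.817). Without the first hyperoxia library the adjusted p was 0.0527 for Tgs1 and 0.0610 for Xpo1. Snu13, the core box C/D protein that binds the k-turn of the guide RNA, stood in the table under its older symbol Nhp2l1. Its level was 86.1 to 121.0 CPM in normoxia (median 101.6) and 99.0 to 138.3 CPM in hyperoxia (median 121.1), and its log2 fold change of 0.18 ± 0.13 (SE) did not pass (edgeR adjusted p = 0.362). Tert, the telomerase reverse transcriptase, had 0 counts in all 13 libraries, which allows a level of up to 0.661 to 1.87 CPM depending on the library (3 counts).

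**Figure D4:**
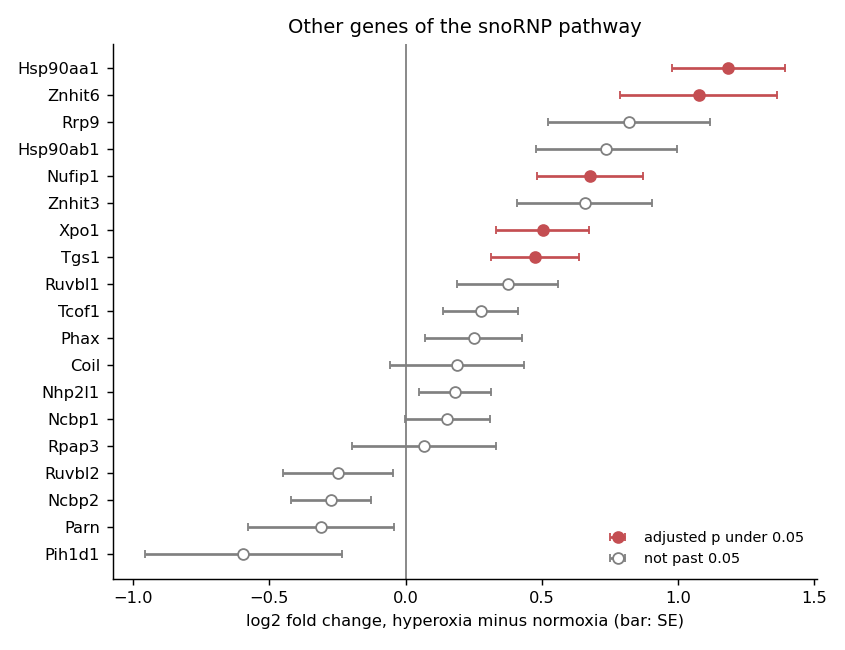
The log2 fold change (hyperoxia minus normoxia) with its SE is plotted for the 19 tested genes of the pathway list, in order of size. Filled symbols mark the 5 genes with an edgeR adjusted p below 0.05, all to the right of 0, and 15 of the 19 estimates are above 0.

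Long RNAs that host snoRNAs were sparsely represented. Of 21 listed host transcripts, 2 had a row in the table. Zfas1 ranged from 69.3 to 103.8 CPM in normoxia (median 78.7) and from 37.0 to 329.6 CPM in hyperoxia (median 200.3), where 5 of 6 libraries lay above every normoxic one and the first hyperoxia library lay below all. Its log2 fold change was 1.28 ± 0.32 (SE, edgeR adjusted p = 0.00811). The call was lost with limma-voom (adjusted p = 0.0528), when the deposited values were fitted by limma (0.0860) and among the libraries lettered B to M (log2 fold change 0.88, adjusted p = 0.219). Without the first hyperoxia library the Zfas1 log2 fold change was 1.51 (edgeR adjusted p = 4.61e-06). Among the libraries lettered O to S it was 1.76 (edgeR adjusted p = 0.00410). Snhg11 had a log2 fold change of -0.57 ± 0.26 (SE) and did not pass (edgeR adjusted p = 0.127), but with the letter set as a term it fell by 0.70 (edgeR adjusted p = 0.0135), and without hyperoxia 6 it fell by 0.78 (0.0322).

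Proliferation genes formed a further list. Of 18 such genes, 14 were tested, 1 rose (Ccna2, a cyclin of S phase, log2 fold change 0.78 ± 0.25, SE, edgeR adjusted p = 0.0360), 0 fell, against 11.8% and 10.8% of all tested genes, and the median log2 fold change was -0.55. The Ccna2 call was lost under 11 of 24 alternatives, among them leaving out normoxia 1, 2, 3 or 4 or hyperoxia 3 or 5. Mki67 and Top2a, which mark dividing cells, had log2 fold changes of -0.57 and -0.12, and Pcna, the replication clamp, had 0.20 (edgeR adjusted p = 0.260, 0.762 and 0.633).

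The 3′ ends of 3 members overlap a gene on the opposite strand, where 3′ reads could be assigned to either if strand was not used in counting. Nop56 overlaps Idh3b by 5 bases, Dkc1 overlaps Mpp1 by 45 and Nhp2 overlaps Rmnd5b by 44. The neighbours had log2 fold changes of -0.15, 0.40 and -0.22 (edgeR adjusted p = 0.782, 0.0999 and 0.800). Without the first hyperoxia library, where the Dkc1 call was lost, Mpp1 passed (0.49, edgeR adjusted p = 0.0347). The mean level of Rmnd5b, 6.00 ± 3.75 CPM (SD, n = 6) in hyperoxia, was below that of Nhp2 in every library of that condition. The mean level of Mpp1 went from 77.8 ± 11.4 CPM in the 7 normoxic libraries (SD) to 102.6 ± 28.5 CPM in the 6 hyperoxic ones (SD). Shq1 also spans 3 other annotated genes, of which the pseudogenes Gm6565 and Gm44108 had rows, with means below 0.80 CPM.

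The E-box letters CACGTG, which read the same on both strands and are bound by Myc and related factors, were searched in the RefSeq promoter windows of GRCm38.p6, 250 bases before to 50 after each start. They occurred in 0 of the 8 windows that matched a member and in 7.15% of all 32851 windows. This says only that these letters are not in these windows.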

How the data were processed

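RNA from 13 samples of perfused mouse lung (7 normoxia, 6 hyperoxia) was prepared with the Lexogen QuantSeq 3′ kit. The authors pseudoaligned reads with kallisto in BioJupies and deposited whole-number counts per gene symbol, and log10 values that equal log10 of CPM plus 1. The submitters' processing notes list mm10, kallisto and limma 3.54.2. The annotation release and strand setting are not given in the sources used here. The deposited counts carry no molecular identifiers, so limits cover counting error only. Nothing in the labels says whether each library is a separate animal, so p-values measure the spread between these samples. Libraries of 1 condition differed by at least 3.79 in chi-square per gene, so none was a duplicate.

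Counts were tested in R 4.3.3 with edgeR 4.0.16 (TMM scaling, filterByExpr, quasi-likelihood F test, 12496 genes, Benjamini-Hochberg adjustment over all), unlike limma in the study. CPM values are TMM-scaled. Each SE is the absolute log2 fold change divided by the square root of F. Rises and falls are calls at an adjusted p below 0.05. Alternatives used limma 3.58.1, DESeq2 1.42.0, other scalings, filters, blocks and left-out libraries. The code was tested on simulated data. Annotation was GENCODE M21 of GRCm38. Genes named were all members, list genes that passed, Snu13, Tert, Mki67, Top2a, Pcna and the 5 most alike genes. Further pathway genes that did not pass were named as well. Genes overlapping members, Snhg11 and the marker lists (alveolar type 2 and type 1, endothelium, fibroblast, T and NK cell, B cell, neutrophil, macrophage and monocyte, heart muscle, liver) were added. The members and lists were chosen with earlier results of these data known.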

Additional observations from a re-analysis of the deposited data

Results flagged for a closer look

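Within each condition, a library far from its neighbours was sought by Dixon's ratio of the gap to the range, at the 95% level, for the 10 members, 3 gene lists and the total count (28 groups in all). Chance gives about 1 in 20. The third hyperoxia library was high for Nop58, at 631.6 CPM against 412.8 for the next (ratio 0.717). The first hyperoxia library was high for Nhp2 at 134.0 CPM against 70.5 (0.688), for Nop10 at 153.3 against 116.0 (0.653), and for the summed pathway list at 12406 against 7552.5 CPM (0.660). The first normoxia library was high for Gar1 at 22.0 CPM against 12.3 (0.650). The fifth normoxia library had the lowest total count, 1607111 (0.612).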

How the results depend on the processing

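Nop58, Nop56, Nhp2 and Nolc1 kept their direction and an adjusted p below 0.05 under all 24 alternatives, with log2 fold changes of 1.18 to 1.88, 0.77 to 1.19, 1.28 to 1.77 and 0.71 to 1.39. Dkc1 lost its call under 15 of 24, so that the H/ACA count fell to 1 with limma-voom, the deposited log values, library size alone, the replicate block and the B to M libraries, and was 1 to 2 with 1 library left out. With a log2 fold change above 1.5 as well, 2 members passed in the main fit. Neither did on the deposited log values (1.47 for Nop58, 1.38 for Nhp2) or with library size alone (1.48 and 1.46). Nhp2 was below 1.5 with limma-voom (1.48), the replicate block (1.45) and without hyperoxia 1 (1.28). Nop58 was below it within O to S (1.18) and fell to 1.43 at the lowest with 1 library left out. Nop10 turned positive with the letter set as a term (0.026), within B to M (0.0033) and within O to S (0.14), and ran from -0.14 to 0.028 with 1 library left out. Gar1 was -0.078 within B to M.

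Over all genes 2819 passed, against 1344 with the replicate block and 1120 within B to M. Same-numbered libraries deviated with correlations of -0.33, 0.27, -0.24, -0.31, -0.07 and -0.14, so the numbers were not taken as pairs. Under the block, the pathway list gave 1 call (Znhit6 had an adjusted p of 0.0995), the host transcripts 0 (Zfas1 had 0.103) and the proliferation genes 0.

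The pathway count of 5 was 8 with DESeq2, 3 with the deposited log values, library size alone or no filter, 2 within B to M, 1 within O to S and 3 to 7 with 1 library left out (3 without normoxia 1, 2, 3 or 5). The host count of 1 was 0 with limma-voom, the deposited values and B to M, 2 with the letter set as a term and within O to S, and 1 to 2 with 1 library left out (2 without hyperoxia 6), where each 2 is Zfas1 higher and Snhg11 lower. The proliferation count of 1 was 2 with DESeq2, limma-voom, no filter or at least 10 counts per library, 0 within B to M, 3 within O to S, and 0 to 2 with 1 library left out (0 without normoxia 1, 2, 3 or 4, and 2 without hyperoxia 1), where counts of 2 and 3 hold 1 rise and the rest falls. With the deposited values, with library size alone and without hyperoxia 3 or 5, its 1 call was a fall. The marker count was 14 with at least 10 counts per library, where fewer genes were tested. The pair count of 17 was 13 to 16 with 1 library left out and 17 to 19 otherwise.

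Top2a turned to 0.20 within B to M and ran from -0.24 to 0.023 with 1 library left out. Pcna turned to -0.019 on the deposited values and ran from -0.0085 to 0.40. Within O to S, Pcna rose by 0.59 (edgeR adjusted p = 0.0428) and Mki67 fell by 1.18 (0.0230). Idh3b was 0.38 and Rmnd5b 1.22 within O to S, and they ran from -0.30 to 0.061 and from -0.40 to 0.033. The causes were not tested. The few counts limit Fbl, and 2 against 3 libraries limit the O to S values.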

Other observations

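Nop58, Nop56 and Dkc1 belong to the 258 protein-coding gene names that hold a snoRNA gene on their own strand. This set was drawn from the annotation after the members' values were seen. Without these 3 members, 201 of the set were tested, of which 47 rose (23.4%) and 12 fell (5.97%), with a median log2 fold change of 0.23. Of the 11685 other tested protein-coding genes, 1381 rose (11.8%) and 1283 fell (11.0%), with a median of -0.03. When the first hyperoxia library was left out, 63 of 202 rose (31.2%) against 15.2% of the others. The other genes were not matched to the set for level, and the difference was not tested.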
